A study of Drosophila melanogaster with 4 samples.

Results

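The neuropeptide genes that act on feeding and metabolism in the fruit fly Drosophila melanogaster were examined as a set of 10 genes chosen by symbol: Ilp2, Akh, NPF, sNPF, Dh44, Dh31, Tk, Pdf, Crz and amn. Of these, 9 had a probe set annotated to that gene alone, each with exactly 1 probe set, among 14010 probe sets that name 10844 single genes. Tk, the tachykinin precursor gene, was matched to no probe set in the platform annotation used here and was not analysed here. The 9 probe sets were 152379_at for Ilp2, 143479_at for Akh, 144175_at for NPF, 146529_at for sNPF, 149572_at for Dh44, 146038_at for Dh31, 143977_at for Pdf, 143722_at for Crz and 143067_at for amn.

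RNA of whole adult flies was hybridised to one-colour Affymetrix oligonucleotide arrays, 1 array for each of 4 baseline samples, which form a single group (n = 4). Per the labels, the animals ate a standard diet as larvae until early in the third instar and then a diet without yeast, their protein source, until 4 days after emergence, when the baseline flies were killed just before other flies were given yeast again. All 4 samples therefore come from yeast-deprived adults, and no fed group is analysed here. The samples are called libraries 1 to 4 in the order of their labelled hours -4, -3, -2 and -1, an order given for a change-point analysis. The labels do not name the strain or sex, nor how many flies or cultures each sample came from, so p-values measure only the spread between these samples, which may be technical.

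Neuropeptides are cut from larger precursor proteins, stored in dense core vesicles and released from neurons or endocrine cells to act on receptors, most of them G protein-coupled. In the fly, insulin-like peptides from brain neurosecretory cells promote growth and sugar uptake, and adipokinetic hormone from the corpora cardiaca mobilises stored fat and sugar, much as glucagon does in mammals. Other peptides of the set change hunger, food choice, water balance or daily activity, and some are made in the gut as well as the brain. Most are made in few cells, so that their transcripts are diluted in RNA of the whole animal. In such bulk RNA, fewer cells of a type and less RNA per cell cannot be told apart.

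Transcripts of 4 genes, Ilp2, Akh, Pdf and Crz, stood above the array's background in every library, while NPF, sNPF, Dh44, Dh31 and amn did not in any. Background was taken from 23 probe sets for mouse, yeast and unspiked bacterial sequences, which have no target in fly RNA. Their median intensity was 46.1 to 48.7 in each library, and the highest single one, a mouse interleukin-2 probe set, had 121, 119, 126 and 133 in libraries 1 to 4. Intensities are the authors' normalized values on a linear scale. The count of 4 of 9 members above the highest negative control in all 4 libraries is 44.4%, near the 39.9% of all 13966 probe sets other than controls that met the same criterion. A value under this limit does not show that a gene is silent, because probe sets differ in how strongly they bind their targets, and for the same reason the levels of different genes are not ranked here.

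**Figure D1:**
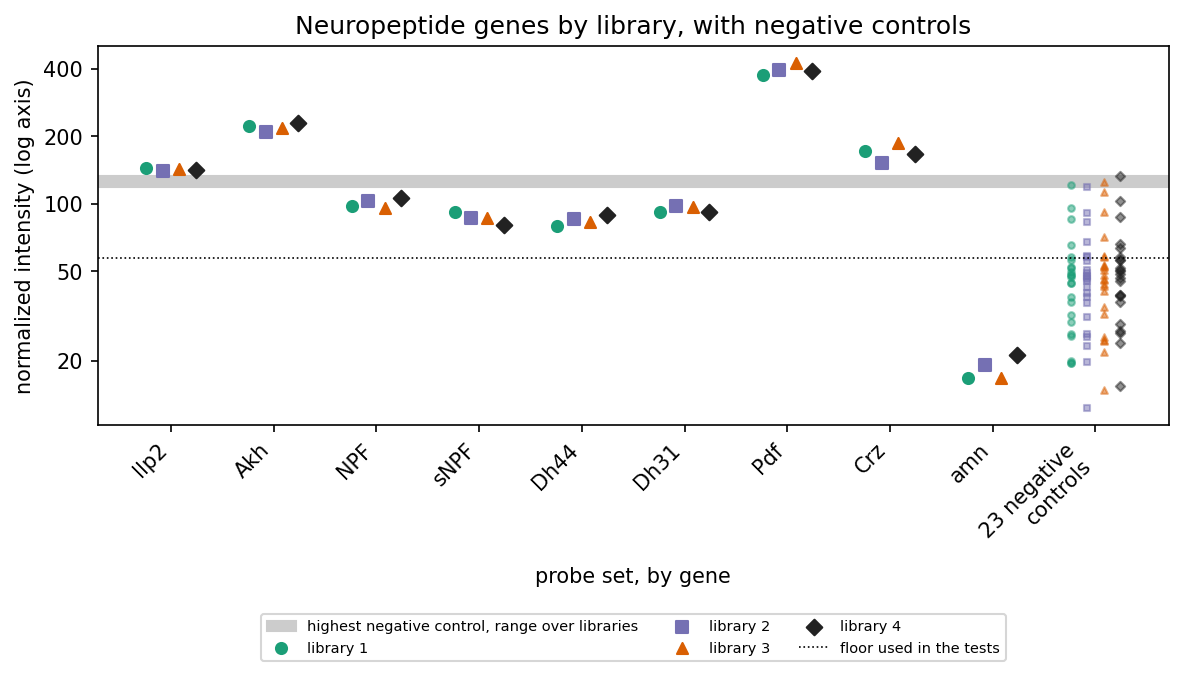
Normalized intensity (log axis) of the 9 neuropeptide probe sets in libraries 1 to 4, followed by the 23 negative control probe sets of the same libraries. The grey band spans the highest negative control over the libraries (119 to 133), and the dotted line is the floor of 57.1 used in the tests. Ilp2, Akh, Pdf and Crz lie above the band in all 4 libraries and amn lies under the floor.

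The pair of hormones that set circulating sugar was measured in every library with little spread. Ilp2, which encodes an insulin-like peptide of the brain's insulin-producing cells, had intensities of 144, 141, 142 and 141 in libraries 1 to 4. The 4 values lay within 1.03-fold of each other, and no library stood out as high or low. They were 1.06 to 1.19 times the highest negative control of the same library, so the margin over background was narrow, narrowest in library 4, where that control was brightest. Akh, the adipokinetic hormone gene, had 222, 209, 219 and 229.7 in libraries 1 to 4. Its mean was 219.8 ± 8.36 (SD, n = 4), with library 4 highest and library 2 lowest, and it was 1.72 to 1.83 times the highest negative control. The log2 ratio of Akh to Ilp2 within a library varied over the libraries with an SD of 0.05 and a range of 0.13, which describes its spread and not the relative abundance of the hormones.

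NPF and sNPF, whose peptides promote feeding, were both dimmer than the highest negative control. NPF, the neuropeptide F gene, expressed in brain neurons and in gut endocrine cells, had 97.4, 102, 95.6 and 107 in libraries 1 to 4. These were 0.760 to 0.859 times the highest negative control, but above 21 or 22 of the 23 negative controls. Library 4 was highest and library 3 lowest. sNPF, which encodes the short neuropeptide F precursor, had 92.1, 86.6, 86.2 and 80.5, with library 1 highest and library 4 lowest, and exceeded 20 or 21 of the 23 negative controls. The order of libraries differed between these genes, and at 1.12-fold for NPF and 1.14-fold for sNPF the highest library was close to the lowest.

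The diuretic hormone genes showed the same low signal. Dh44, whose peptide is related to vertebrate corticotropin-releasing factor, had 80.0, 85.3, 83.1 and 89.2 in libraries 1 to 4. Its mean was 84.4 ± 3.86 (SD, n = 4), and it exceeded 20 or 21 of the 23 negative controls. Dh31, which encodes a calcitonin-like peptide of neurons and gut endocrine cells, had 92.2, 98.0, 96.8 and 92.2. Its mean was 94.8 ± 3.04 (SD, n = 4), above 21 or 22 of the 23 negative controls, with libraries 2 and 3 a little above libraries 1 and 4. Both genes were 1.70 to 2.12 times the median negative control, so each stood in the upper part of the background range without leaving it.

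Pdf and Crz were clear of background and were each highest in library 3. Pdf, whose peptide is the output signal of clock neurons, had 376, 395, 424 and 390.1 in libraries 1 to 4, at 2.92 to 3.37 times the highest negative control. Crz, the corazonin gene, whose peptide is known from responses to stress and starvation, had 172, 153, 186 and 167. It was 1.25 to 1.48 times the highest negative control with a mean of 169.5 ± 13.9 (SD, n = 4). Its coefficient of variation, 8.18%, was the highest of the 4 members above background, beside 5.05% for Pdf.

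Some measures outside the neuropeptide genes set library 3 apart, and others set libraries 3 and 4 apart. The summed intensity of 16 measured male accessory gland and testis genes was 5096 in library 3, against 2006 to 2079 in the other libraries. None of the 16 was at 0 in any library, and the list was chosen with this pattern already known. Not all list genes carried the rise. Acp29AB, Acp62F and Mst98Ca had 51.7, 112 and 533 in library 3, against at most 51.7, 107 and 514 in the other libraries. Summed midgut markers were lowest in library 3, at 3589 against 4117 to 5018, as were summed fat body markers, at 1285 against 1424 to 1836. Single markers did not all share this: alphaTry and Mal-A1 were lowest in library 3, but Jon25Biii in library 4 and lambdaTry in library 2. Of the fat body markers, Yp1 and apolpp were lowest in library 3 and Lsp2 in library 1. Hybridisation controls, added in fixed amounts, averaged 1.59 times library 1 in library 3, 1.29 times in library 4 and 0.927 times in library 2. The log2 ratio of 3' to 5' probe sets of fly control transcripts, a sign of RNA quality, was 1.14, 1.05, 1.44 and 1.40 in libraries 1 to 4. The part of these measures in the values of Pdf and Crz was not tested. Without library 3, Pdf spanned 376 to 395 and Crz 153 to 172.

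amn, the amnesiac gene, named for a memory mutant and thought to encode a peptide that acts through cyclic AMP, had 16.7, 19.1, 16.8 and 21.2 in libraries 1 to 4. All 4 values lay below the floor of 57.1 and were higher than at most 1 of the 23 negative controls. Its highest value was 1.27-fold its lowest, and at this level an order of libraries carries no information on the transcript.

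Which libraries were high or low differed from gene to gene. Library 4 was highest for Akh, NPF, Dh44 and amn, library 1 for Ilp2 and sNPF, library 3 for Pdf and Crz, and library 2 for Dh31. Library 1 was lowest for Dh44, Pdf and amn, library 2 for Ilp2, Akh and Crz, library 3 for NPF, and library 4 for sNPF and Dh31. Akh, NPF and Dh44 were thus brightest in the library whose highest negative control was also brightest, at 133 against 119 to 126 in the others. By contrast, sNPF and Dh31, also within background, were dimmest in that library. Whether the background moved these genes was not tested. Of the 6 tested members, 1, 1, 2 and 2 were highest in libraries 1 to 4. Among all tested probe sets the shares were 25.4%, 26.8%, 23% and 24.8%. The median log2 deviation from the gene mean over the 6 tested members was -0.01, -0.01, 0.02 and -0.01 in libraries 1 to 4. Over all 8379 tested probe sets it was 0.01, 0.01, -0.01 and -0.01.

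**Figure D2:**
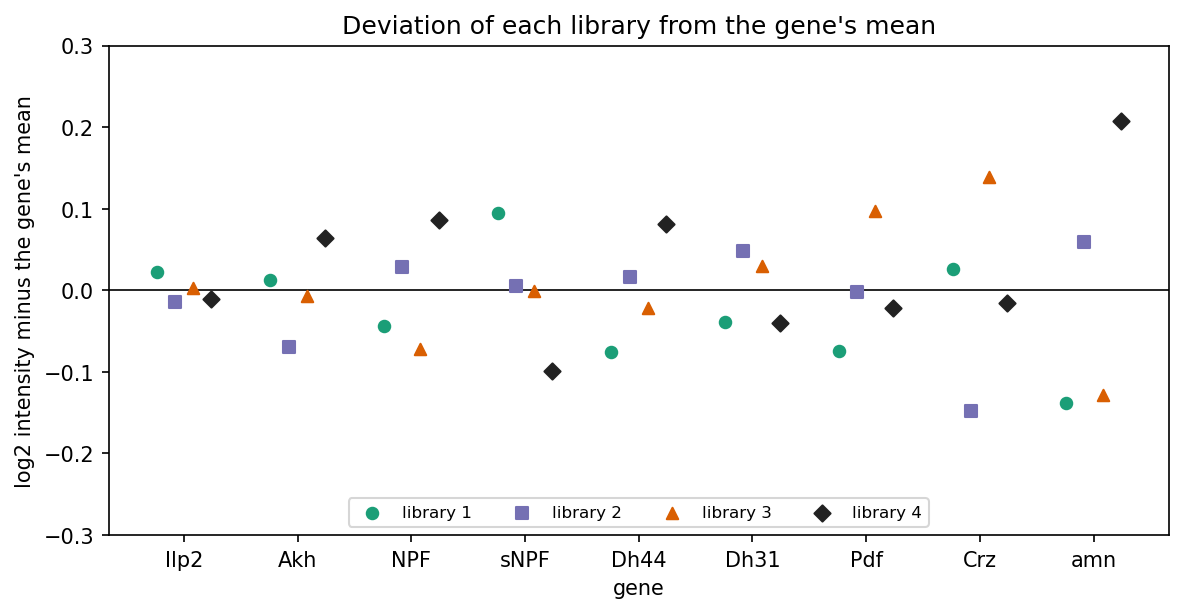
Log2 intensity minus the gene's mean over 4 libraries for each of the 9 neuropeptide genes, with 1 point per library. Ilp2 varies least, Crz has its lowest value in library 2 and its highest in library 3, and amn, which lies within background, deviates most, by 0.21 in library 4.

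The question the baseline libraries allow is whether a gene varied more between them than other genes of like intensity, because that spread limits what a refed sample could later be said to change. For this test values under the floor of 57.1, the 20th percentile, were raised to it, and probe sets with a mean above the 40th percentile, an intensity of 92.5, were kept. Of the 9 members, 6 passed this filter on low values: Ilp2, Akh, NPF, Dh31, Pdf and Crz. Dh31, with a mean of 94.8, was the member closest above the filter, and sNPF, with a mean of 86.3, the closest below it.

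No tested member passed for excess variance. In the limma-based test with Benjamini-Hochberg adjustment, 0 of the 6 passed at an adjusted p under 0.05, and 0 had an unadjusted p under 0.05. Among all tested probe sets 0.274% passed, and 463 of 8379 had an unadjusted p under 0.05. Counts of 0 among 6 are near those background shares. The widest span of a tested member was 1.22-fold, for Crz. In simulated data the test recovered 0% of probe sets changed 1.5-fold in 1 library. It therefore cannot decide on differences of the size seen. With neither floor nor filter, a setting chosen after seeing the data in which all 9 members were tested, 0 of 9 passed and 0 had an unadjusted p under 0.05, beside 0.43% of 13966 probe sets that passed. Of these 13966, 779 had an unadjusted p under 0.05. In that setting the SD was 0.914 times that expected for sNPF, 0.755 times for Dh44 and 0.873 times for amn. The SD of log2 intensity was 0.02 for Ilp2, 0.05 for Akh, 0.07 for NPF, 0.05 for Dh31, 0.07 for Pdf and 0.12 for Crz. The median over the 6 was 0.06, beside 0.08 over all tested probe sets, of which 95% had an SD of 0.18 or less.

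Relative to the SD expected at its intensity, Crz had the highest ratio and Ilp2 the lowest. Crz had a ratio of 1.53 (adjusted p = 0.981, limma-based test). The lowest value, 153 in library 2, and the highest, 186 in library 3, set this spread, and the ratio was 0.983 without library 2. For Pdf the ratio was 0.794, and without library 3 it was 0.421. Ilp2 had a ratio of 0.212, and 1.29% of all tested probe sets had a smaller one. Without library 1 the ratio of Ilp2 was 0.101. This small spread was singled out after its value was seen, no test for low variance was run, and the gene lay close to background. The ratio was 0.688 for Akh, or 0.436 without library 2, 0.879 for NPF and 0.572 for Dh31, and the median over the 6 members was 0.741, beside 0.927 over all tested probe sets.

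**Figure D3:**
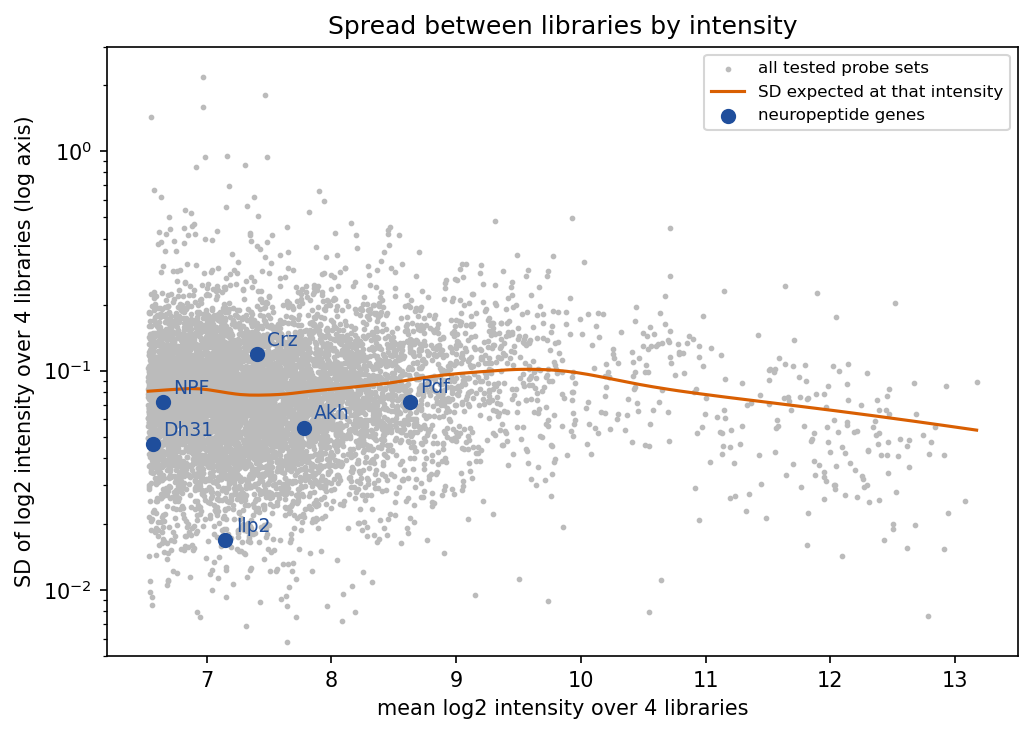
SD of log2 intensity over 4 libraries (log axis) against mean log2 intensity for all 8379 tested probe sets in grey, with the 6 tested neuropeptide genes in blue. The line is the SD expected at each intensity. Crz lies above the line with an SD of 0.12, and the other 5 lie below it, Ilp2 lowest with an SD of 0.02.

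Each library was next set against the mean of the other 3, to see whether a member differed in a sample that stands apart. In limma, 0 of the 6 tested members passed for any library, and 0 had an unadjusted p under 0.05. Over all 8379 tested probe sets, 172, 237, 541 and 723 had an unadjusted p under 0.05 for libraries 1 to 4. Beside such shares, a count of 0 among 6 does not set the members apart. Among all tested probe sets 0.704% passed for library 3, 0.107% for library 2, 0.0119% for library 4 and 0% for library 1. The member differences with the smallest p were those of Crz. Its log2 difference was -0.20 ± 0.09 (SE) for library 2 (limma adjusted p = 0.999) and 0.19 ± 0.09 (SE) for library 3 (limma adjusted p = 0.795). Pdf differed by 0.13 ± 0.10 (SE) in library 3, and NPF by 0.12 ± 0.08 (SE) in library 4, with limma adjusted p of 0.917 and 0.679. The spread in this test comes from 3 libraries and is taken to hold for the library set against them.

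The spread also gives the range in which a further baseline library would be expected, from limma's moderated variance. The 95% prediction range was 127 to 159.6 for Ilp2, 194 to 249 for Akh, 342 to 459 for Pdf and 145 to 198 for Crz. It corresponds to 1.12-fold of the mean for Ilp2, 1.13-fold for Akh, 1.16-fold for Pdf and 1.17-fold for Crz in either direction. For NPF and Dh31 the ranges were 87.7 to 115 and 83.7 to 107, all below the highest negative control. The ranges hold for a library processed like these and do not cover samples of another batch.

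The receptors of these peptides were measured for 10 of 11 genes, with 13 probe sets, CrzR being matched to none. Of the 10 genes, 5 had a probe set above the highest negative control in all 4 libraries: InR, sNPF-R, Dh44-R2, TkR99D and TkR86C. By probe set this was 6 of 13, or 46.2%, near the 39.9% of all probe sets other than controls. InR, the insulin receptor gene, had 184, 190.1, 204 and 180.1 in libraries 1 to 4. The probe sets of sNPF-R, the short neuropeptide F receptor gene, gave 217 to 229 and 131 to 146, the dimmer of them just above background.

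TkR99D, a tachykinin receptor gene, had 166 to 177 and TkR86C, a second receptor gene of that family, 159 to 183. TkR99D and TkR86C were therefore above background although Tk itself was not analysed here. For Dh44-R2, a receptor gene for the Dh44 peptide, the probe sets differed: 1 had 154 to 184, above background in every library, and the other 107 to 117, above it in none. Dh44-R1, the other Dh44 receptor gene, had 70.2 to 73.0. Dh31-R, the Dh31 receptor gene, gave 101 to 108 and 79.9 to 94.7 for its probe sets. Pdfr, the receptor gene for the Pdf peptide, had 64.8 to 72.5, and NPFR, the neuropeptide F receptor gene, 25.1 to 26.6. Dh44-R1, Dh31-R, Pdfr and NPFR were thus below the highest negative control in all 4 libraries.

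AkhR, the adipokinetic hormone receptor gene, known from fat body, varied most among the receptors. It had 73.8, 62.6, 49.3 and 42.8 in libraries 1 to 4, a coefficient of variation of 24.2%, and its mean was too low for the filter. With neither floor nor filter its SD was 3.40 times that expected, but it did not pass (unadjusted p = 0.00341 and adjusted p = 0.299, limma-based test). All its values were below the highest negative control, and those of libraries 3 and 4 were under the floor of 57.1. Over the 4 libraries AkhR was 0.879 to 1.57 times the median negative control. It exceeded 9 to 20 of the 23 negative controls, so its values and their order may hold background signal. The summed intensity of the fat body markers Lsp2, Yp1 and apolpp, all above background in every library, was 1836, 1765, 1285 and 1424 in libraries 1 to 4, also higher in libraries 1 and 2. The 2 apolpp probe sets and Yp1 carried this difference, while Lsp2 had 198, 239, 221 and 249, lowest in library 1 and highest in library 4. The 3' to 5' ratio given above was lower in libraries 1 and 2 as well. The part of fat body RNA or RNA quality in the AkhR values was not tested. Of the 8 receptor probe sets that were tested, 0 passed for excess variance, beside 0.274% of all tested probe sets. Unadjusted p was under 0.05 for 0 of the 8, beside 463 of all 8379 (limma-based test). The median SD of the 8 was 0.06.

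**Figure D4:**
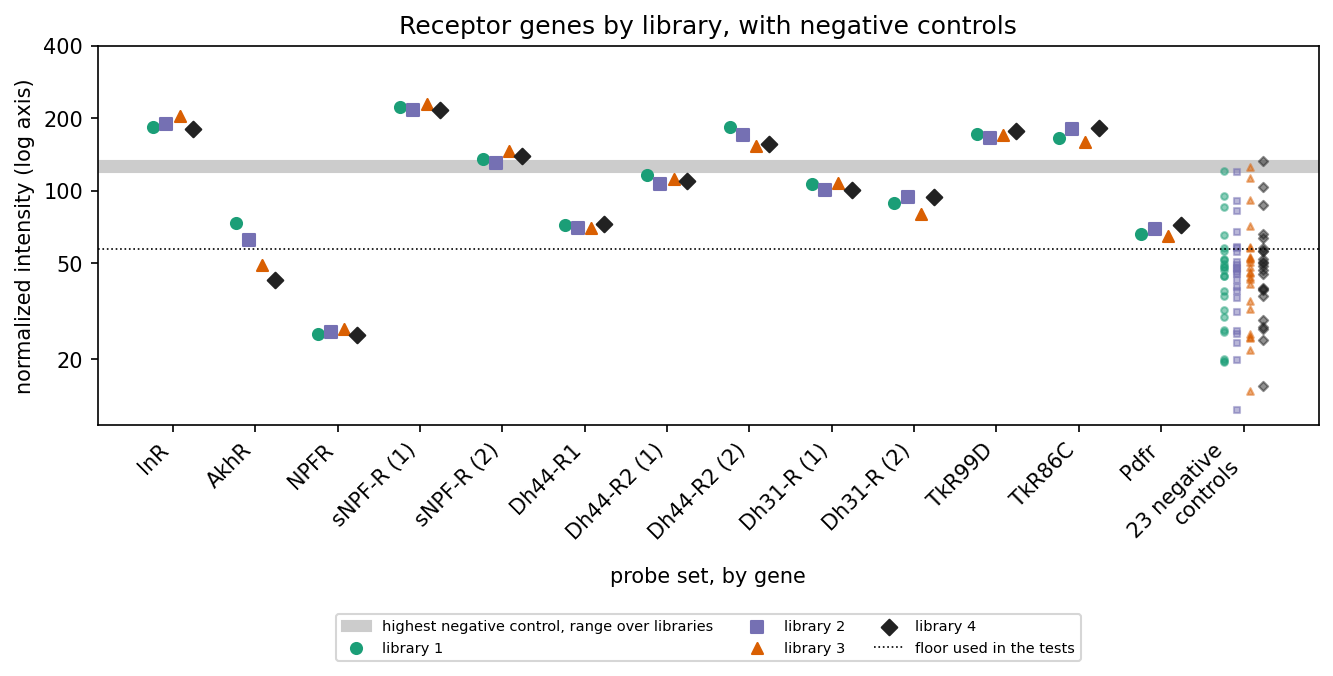
Normalized intensity (log axis) of 13 probe sets for 10 receptor genes in libraries 1 to 4, followed by the 23 negative controls. A number in brackets separates the probe sets of a gene. InR, TkR99D, TkR86C and 1 probe set each of sNPF-R and Dh44-R2 lie above the grey band (119 to 133) in all libraries, the dimmer sNPF-R probe set reaches into it at 131 in library 2, and AkhR spans 42.8 to 73.8 beneath it.

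Genes that process and release neuropeptides gave a similar picture, with 12 of 15 genes measured by 15 probe sets. By probe set, 6 of 15, or 40%, were above the highest negative control in every library, beside 39.9% of all probe sets. They belonged to 5 genes: svr, a carboxypeptidase gene, Phm and Pal2, whose enzymes amidate peptides, IA-2, a dense core vesicle gene, and 7B2, whose product assists prohormone convertase. The svr probe sets differed: the other had 79.0 to 83.8, above the highest negative control in no library. Phm had 476, 502, 485 and 436 in libraries 1 to 4. amon, the prohormone convertase gene, had 44.3 to 54.6, and dimm, a transcription factor gene of peptidergic cells, 78.9 to 85.1, both within background. In the limma-based test for excess variance, 0 of 7 tested probe sets passed, beside 0.274% of all tested probe sets. Unadjusted p was under 0.05 for 0 of the 7, beside 463 of all 8379.

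Among 37 other neuropeptide genes, 24 had a single-gene probe set and 11 were above the highest negative control in every library, which is 45.8%, near the 39.9% of all probe sets. They were AstC, Capa, FMRFa, ITP, Lk, Ms, Nplp1, Nplp2, Nplp3, Nplp4 and Proc. Of 17 tested, 0 passed for excess variance, beside 0.274% of all tested probe sets. Unadjusted p was under 0.05 for 2 of the 17, beside 463 of all 8379 tested probe sets. These 2 were Capa and Nplp2 (limma-based test, adjusted p = 0.342 and 0.470). Capa, whose peptides act on the renal tubules, had 314, 221, 287 and 215 in libraries 1 to 4, highest in libraries 1 and 3. Nplp2, a neuropeptide-like precursor gene, had 2692, 2498, 1917 and 2049, lower in libraries 3 and 4, where the 3' to 5' control ratio was higher; the part of that ratio was not tested. Their SDs were 3.31 and 3.05 times those expected at their intensity, beside 1.53 for Crz, the widest of the feeding and metabolic set.

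The label of whole animal was checked against marker genes. Genes of neurons (nSyb, brp and Csp), glia (repo and moody), photoreceptors (trp), muscle (up and Act88F), fat body (Lsp2, Yp1 and apolpp), midgut (Jon25Biii, Mal-A1 and alphaTry) and ovary (Cp16, Cp18, Cp36, Vm26Aa and osk) were above the highest negative control in all 4 libraries. Of the neuron markers, elav had 94.9 to 113 and was above it in no library, and the same held for lambdaTry of the midgut list, at 92.7 to 121. Cp15 of the ovary list was above it in 3 libraries. Of the 3 brp probe sets, 1 was above it. The summed intensity of the 4 measured neuron markers was 1278, 1237, 1260 and 1225 in libraries 1 to 4, with library 1 highest and library 4 lowest. Single markers did not share this order: nSyb had 547 in library 1 and 469 in library 4, while Csp had 337 and 359 in these libraries. For enteroendocrine cells, which make Dh31, NPF and Tk in the gut, pros had 255 to 286 and Rab3 70.9 to 89.6, and both genes are also expressed in neurons.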

How the data were processed

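The authors deposited linear intensities, 1 for each probe set in each library. Per the labels they had scaled the arrays to each other with dChip and its selection of invariant probes. No source used here states the dChip version, its background model or detection calls. All values were above 0 and the library medians were 112 to 113, so no further normalization was applied. Arrays have no depth; their number, 4, limits the precision.

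Probe sets were named through the platform annotation. Of 13966 probe sets other than 44 controls, 12443 matched 1 gene, 327 several and 1196 none. Symbols of 12394 were updated through gene identifiers to the RefSeq table of the Release 6 plus ISO1 MT assembly. No coordinates or sequences were used.

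Tests used limma 3.58.1 (with statmod 1.5.0, in R 4.3.3) over 8379 probe sets, after a floor of 57.1, log2 and a filter at the 40th percentile of means. Variance was tested against the robust, intensity-trended prior of squeezeVar (7.26 prior degrees of freedom, upper tail of F). Each library against the other 3 was tested with lmFit and eBayes, two-sided. Benjamini-Hochberg adjustment covered all tested probe sets.

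Simulated data had 8379 probe sets, 200 of them changed in 1 library. Their errors were normal and independent between probe sets, with variances drawn from the fitted prior. The recoveries therefore hold under the model of the tests and leave out shifts shared by many probe sets. The variance test recovered 97.5% at 2-fold, with 2.5% of its calls false, and 0% at 1.5-fold. The test of library 3 recovered 100% at 2-fold, with 5.21% of its calls false, and 85.5% at 1.5-fold, with 4.47% false.

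The members were named by symbol whatever their values. Receptor genes were named likewise. Genes of the other lists were to be given with values where they passed a test; those given beyond that were picked once their values were known. The members and lists were chosen with earlier results of these data known. Alternatives varied the floor, the filter, the scaling, the prior, the background limit and the libraries used.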

Additional observations from a re-analysis of the deposited data

Results flagged for a closer look

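Of 61 probe sets of the neuropeptide, receptor, processing and other neuropeptide lists, 2 had 1 library far from the other 3 by Dixon's ratio, the gap to the nearest library divided by the whole range. Chance gives about 1 in 20 such cases. Among the 22 probe sets of the feeding and metabolic neuropeptides and their receptors there were 0.

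Nplp1, a neuropeptide-like precursor gene, had a ratio of 0.896, with 302 in library 3 against 290.3 to 292 in the other libraries. Burs, a subunit gene of the cuticle-hardening hormone bursicon, had a ratio of 0.870, with 107 in library 4 against 89.1 to 91.5 in the others. Burs lay below the highest negative control in every library.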

How the results depend on the processing

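No feeding or metabolic neuropeptide gene passed a test in any setting tried, in the variance test or in the tests of a library against the others. The variance test recovered 0% of simulated 1.5-fold changes in 1 library, so its result leaves smaller differences undecided. The smallest adjusted p of a member was 0.152, in limma for library 3 without library 4. Counts over all probe sets moved more. Variable probe sets numbered 23, against 0 with no filter (1400 had an unadjusted p under 0.05), 12 with a filter at the 60th percentile, 40 after quantile normalization, 10 with a prior that was not robust and 60 with neither floor nor filter, a setting added after seeing the data; leaving out each library in turn gave 0 (without library 3) to 57. With no filter, 52, 30, 129 and 106 probe sets passed for libraries 1 to 4, against 0, 9, 59 and 1 in the setting reported. With a filter at the 60th percentile the counts were 1, 5, 24 and 0. For library 2 the count was 5 with a prior that was not robust, and 5 to 18 with 1 library left out. For library 3 it was 52 to 504, and for library 4 it was 0 to 503, with 1 library left out; the highest counts came without library 4 and without library 3. For library 4 it was 0 with an offset in place of the floor, quantile normalization, median centring, a prior that was not robust or a prior with no trend (limma; 688 to 732 had an unadjusted p under 0.05). The cause of these shifts was not tested. The 4 member genes above background became 8 against the median negative control and 0 when the bright hybridisation controls were counted as background, and the count was 4 with each library left out. No paired analysis was possible because the samples form a single group.

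The precision is limited by 4 arrays, and NPF, sNPF, Dh44, Dh31 and amn lay within the range of the negative controls, so their values may hold background signal. Leaving out 1 library moved the ratio of SD to expected SD by over 1.5 times for Ilp2, Akh, Crz and Pdf, as given above.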
